A study of Mus musculus with 6 samples.

Results

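The genes described here, 39 in number, carry signals from surface receptors to the transcription factor NF-κB: the IκB kinases (IKK), the kinases upstream of them, the TRAF and TIR adaptors, and the enzymes that add or remove ubiquitin. They were listed by name for their known roles, with earlier results of these arrays known. A gene was measured where a row of the array table carried its symbol alone, and 34 of the 39 listed genes were, among 19938 genes in all. Chuk, Ripk1, Ripk2, Irak4 and Traf3 were not analysed here. By role the measured genes comprised 14 of 18 listed kinases and their subunits, 9 of 10 adaptors, 10 of 10 ubiquitin enzymes with their partners, and Nfkbid, an atypical IκB protein.

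The arrays were made from 3 mice labelled p65 wild-type and 3 labelled p65 knockout, 1 array per mouse. p65, encoded by Rela, is the main activating subunit of NF-κB, and the series title places its deletion in the hematopoietic compartment. The promoter that drove the deletion, the strain and the age of the mice are not given in the sources used here. No treatment is named for either group. The bone marrow cells carried Sca-1 and c-kit at their surface and lacked Flk2 and lineage markers, a sort that is known to enrich stem cells and the earliest progenitors of blood. The comparison asks whether loss of p65 goes with other transcript levels of the machinery that acts upstream of it.

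In the classical pathway, a ligand-bound receptor recruits adaptors such as MyD88, TRADD and TRAF proteins. Ubiquitin chains built on these complexes bring in the TAK1 kinase and the IKK complex. IKK marks the inhibitor IκB for destruction, and dimers that contain p65 then enter the nucleus. Some of the genes that NF-κB switches on encode brakes on the same route, among them Tnfaip3 (the protein A20) and Nfkbid. Birc3 is another of its targets. In blood-forming cells the pathway serves survival, stress responses and the response to infection.

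Some facts of the whole array set bear on every value. Array medians ran from 5.72 to 5.98 and SDs from 2.03 to 2.29 on the log2 scale. Wild-type replicate 1 stood apart, with the lowest SD, the highest median and correlations of 0.951 to 0.963 with the other arrays, which correlated among themselves at 0.982 to 0.994. Fold changes also varied with signal: the median log2 fold change, knockout over wild-type, was -0.22 among the 6646 dimmest genes, -0.09 among the middle 6646 and 0.30 among the 6646 brightest. Leaving out wild-type replicate 1 gave medians of -0.09, -0.08 and 0.13. Of the measured members, 1 lay in the dimmest group, 14 in the middle and 19 in the brightest. Rela itself gave 7.52, 7.89 and 7.92 in wild-type against 7.33, 7.48 and 7.35 in knockout, without overlap (log2 fold change -0.39, limma adjusted p = 0.209, and 0.04 without wild-type replicate 1). Of the markers of the sort, Kit had a log2 fold change of -0.30 (-0.48 without wild-type replicate 1) and Flt3 of 0.06. Ly6a, the Sca-1 gene, was not analysed here. Cd34, which is not named among the markers of the sort, had a log2 fold change of 0.04. Labels describe the samples as separate mice. In these bulk samples, fewer cells of a type and less RNA per cell cannot be told apart.

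None of the 34 measured members passed limma at an adjusted p under 0.05, where 163 genes, or 0.818% of all genes tested, did. At an unadjusted limma p under 0.05 stood 6 of the 34 (17.6%), against 21.6% of all genes. These were Otulin, Traf1, Sharpin, Tirap, Rnf31 and Myd88. Knockout and wild-type values did not overlap for 8 members (23.5%), against 34.6% of all genes. Of these 8, 7 had the higher values in knockout (Map3k7, Myd88, Tirap, Rnf31, Rbck1, Sharpin and Otulin), and Traf1 had the lower. Both shares lay below those of all genes. The median log2 fold change of the members was 0.11, against -0.04 over all genes, and 24 of 34 values were positive, against 45.9% of all genes. Within the brightest group the members' median was 0.23, beside 0.30 for all its genes, and within the middle group 0.06, beside -0.09.

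**Figure D1:**
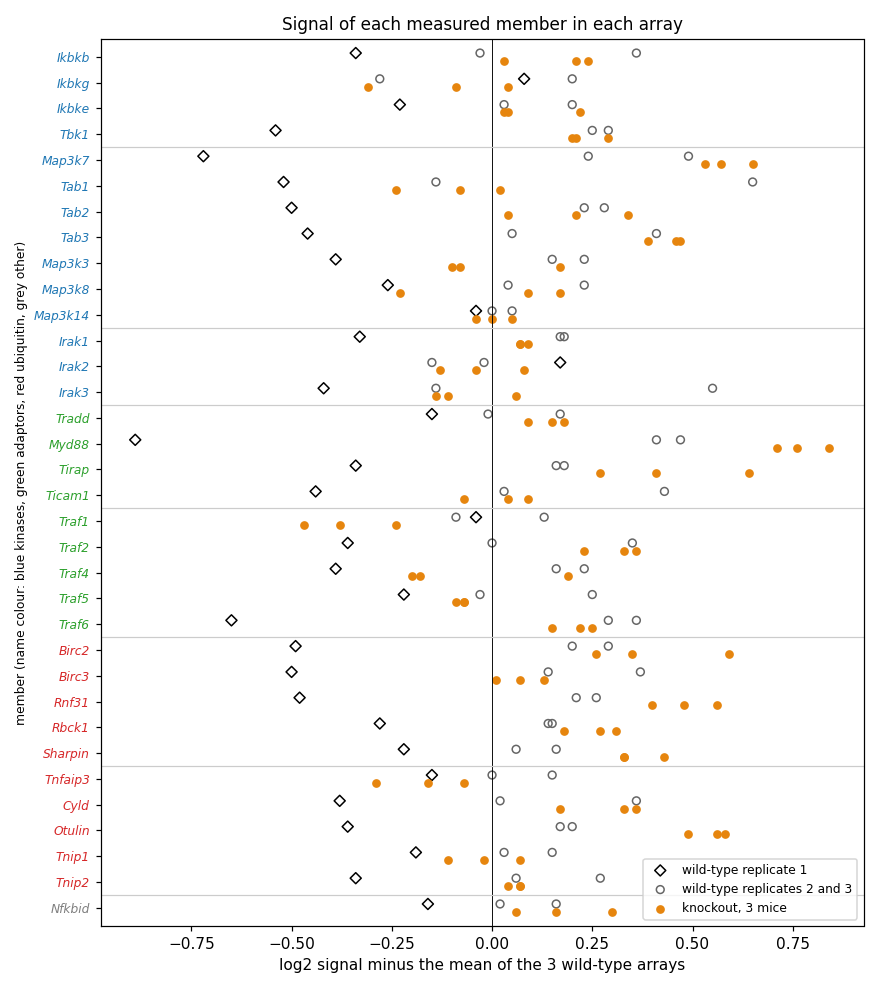
Each row is 1 measured member and each point 1 array, as log2 signal minus the mean of the 3 wild-type arrays. Diamonds mark wild-type replicate 1, open circles the other wild-type arrays and filled circles the knockouts, and wild-type replicate 1 is the lowest of the 6 arrays for 30 of the 34 members.

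Wild-type replicate 1 gave the lowest of the 6 values for 30 of the 34 members, and for 39% of all genes. In the brightest group it was lowest for all 19 members, against 84.2% of genes. In the middle group it was lowest for 11 of 14 members, against 29.7% of genes. The 4 exceptions were Ikbkg, Irak2, Traf1 and Tnfaip3. Without that array the members' median log2 fold change was -0.03, equal to the -0.03 over all genes, and 14 of 34 values were positive. Between the remaining arrays 13 members (38.2%) had no overlap, against 42.5% of all genes. The same 7 had the higher values in knockout, which leaving out their lowest array could not undo. Lower in knockout were 6: Traf1, Tnfaip3, Birc3, Irak1, Traf5 and Traf6. Leaving out the lowest wild-type array of a gene can free only lower knockout values of overlap, so these directions were not open. The wild-type SD exceeded the knockout SD for all 34 members, as for 82.2% of all genes. Without wild-type replicate 1, 929 genes (4.66%) passed and again none of the members, the lowest adjusted p being that of Otulin (limma adjusted p = 0.0799). When limma weighted the arrays by their quality, 1599 genes (8.02%) passed and none of the members, again with Otulin lowest (limma adjusted p = 0.0627). Blocking on replicate number brought 372 genes (1.87%) past the threshold, and none of the members. Without the 6646 dimmest genes, 505 of those left (3.8%) passed, and none of the 33 members among them.

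The size of change that the arrays leave possible was read from the 95% interval of each log2 fold change. For 32 of the 34 members the interval lay inside a 2-fold change in either direction, as it did for 83.5% of all genes. The exceptions were Myd88 and Map3k7, whose intervals reached 1.54 and 1.24. These intervals are not adjusted for the number of genes. Their standard errors ran from 0.13 to 0.33, with a median of 0.19.

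**Figure D2:**
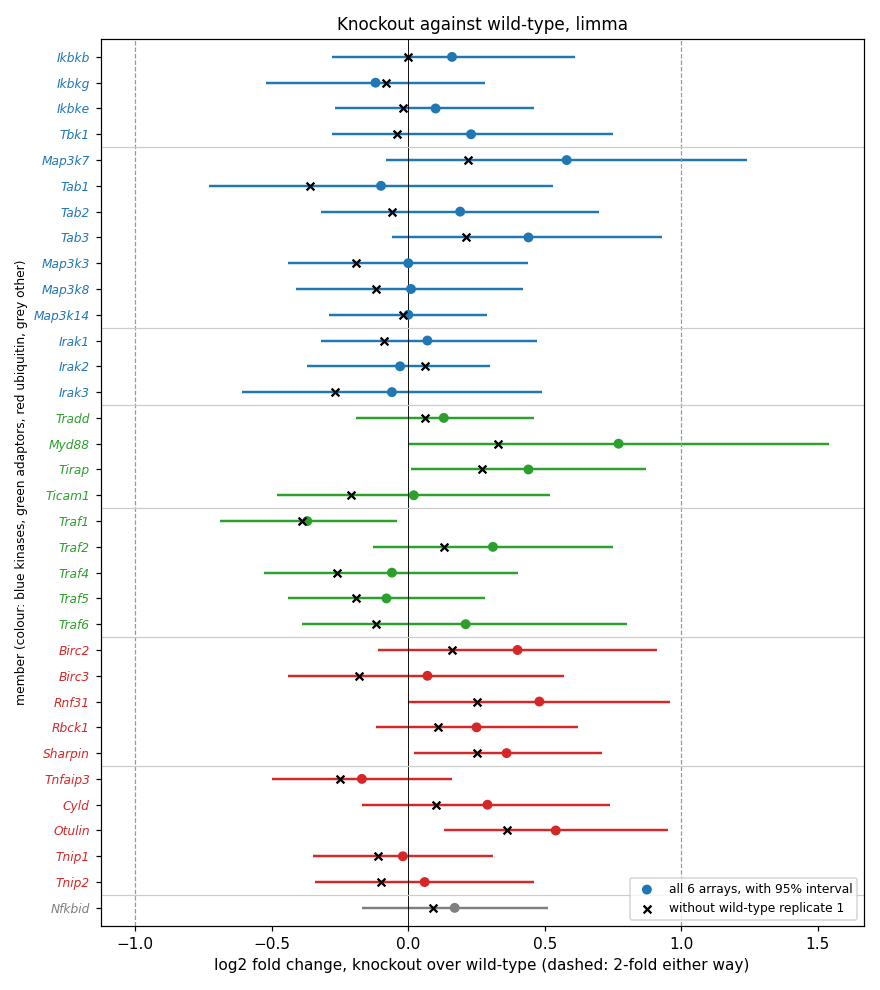
Log2 fold change of each measured member, knockout over wild-type, as a filled circle with its 95% interval from limma, and a cross for the value without wild-type replicate 1. Dashed lines mark a 2-fold change, and only the intervals of Map3k7 and Myd88 cross one, on the right.

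The IKK complex consists of the kinases IKKα (Chuk) and IKKβ (Ikbkb) with the ubiquitin-binding subunit NEMO (Ikbkg). Ikbke and Tbk1 encode related kinases that act mainly in the interferon response. Tbk1 gave 7.35, 8.14 and 8.18 in wild-type against 8.18, 8.10 and 8.09 in knockout. The knockout values lay within the range of wild-type replicates 2 and 3 or just below it, and wild-type replicate 1 alone was low. Its log2 fold change of 0.23 (SE 0.23, limma adjusted p = 0.515) became -0.04 without that array. Ikbkb gave 7.72, 8.42 and 8.03 in wild-type against 8.09, 8.30 and 8.27 in knockout, all knockout values falling between the lowest and highest wild-type arrays. The difference was 0.16 on the log2 scale, with a 95% interval of -0.28 to 0.61. Ikbkg had a log2 fold change of -0.12 (interval -0.52 to 0.28) and Ikbke of 0.10 (interval -0.27 to 0.46). The groups overlapped for all 4 genes.

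Map3k7 encodes TAK1, the kinase that activates IKK, and Tab1, Tab2 and Tab3 encode its partner subunits, of which TAB2 and TAB3 bind ubiquitin chains. Map3k7 gave 7.24, 8.45 and 8.20 in wild-type against 8.49, 8.61 and 8.53 in knockout. Every knockout value was above every wild-type value, by a margin of less than the spread between wild-type replicates 2 and 3. The log2 fold change was 0.58 (SE 0.29, limma adjusted p = 0.271), and 0.22 without wild-type replicate 1. Tab3 gave 6.33, 7.20 and 6.84 in wild-type against 7.18, 7.25 and 7.26 in knockout, so that the knockouts were close together around the highest wild-type value. The knockout mean was above the wild-type mean by a log2 fold change of 0.44 (SE 0.22, limma adjusted p = 0.270). Tab2 stood at 0.19 and Tab1 at -0.10, and the interval of Tab1 was wide (-0.73 to 0.53) with wild-type replicate 2 at 8.11 beside 6.94 and 7.32.

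Among the other MAP3 kinases, Map3k14 encodes NIK, the kinase of the alternative NF-κB pathway, which is known to be controlled mainly by protein turnover. Its standard error was the lowest of the members, with means of 5.96 ± 0.04 (SD, n = 3) in both groups and a 95% interval of -0.29 to 0.29 for the log2 fold change. Map3k3 and Map3k8 (the kinase TPL2) had log2 fold changes of -0.00 and 0.01, with intervals of -0.44 to 0.44 and -0.41 to 0.42.

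IRAK kinases pass the signal from MyD88 to TRAF6, and Irak3 (IRAK-M) encodes a member that dampens Toll-like receptor signals in myeloid cells. Irak1 gave 8.11, 8.62 and 8.61 in wild-type against 8.51, 8.53 and 8.51 in knockout. The knockouts were nearly equal and lay between the low wild-type replicate 1 and the other wild-type arrays. For Irak1 the log2 fold change was 0.07 (limma adjusted p = 0.784), and -0.09 without that array. Irak3 gave 8.17, 8.45 and 9.14 in wild-type against 8.45, 8.65 and 8.48 in knockout. Here wild-type replicate 3 was the highest of the 6 arrays, and the log2 fold change was -0.06 (interval -0.61 to 0.49). Irak2 had means of 6.67 ± 0.16 and 6.64 ± 0.10 (SD, n = 3 each). As a class, the 14 measured kinases and subunits had a median log2 fold change of 0.04. At an unadjusted limma p under 0.05 stood 0 of them, against 21.6% of all genes. Only 1, Map3k7, had no overlap (7.14%, against 34.6% of all genes). Without wild-type replicate 1 the class median was -0.05, and 11 of the 14 values were negative.

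MyD88 is the adaptor of the interleukin-1 receptor and of most Toll-like receptors, and TIRAP bridges it to TLR2 and TLR4. Myd88 had the largest positive difference of the members over all 6 arrays, though not without wild-type replicate 1, where Otulin stood at 0.36 and Myd88 at 0.33. It gave 6.10, 7.46 and 7.40 in wild-type against 7.70, 7.83 and 7.75 in knockout, without overlap. Wild-type replicate 1 lay more than 1 log2 unit below every other array, and the knockouts were tightly grouped. The log2 fold change was 0.77 (SE 0.33, 1.71-fold, limma adjusted p = 0.230). Leaving out that array gave a limma adjusted p of 0.105. Tirap gave 5.17, 5.69 and 5.67 in wild-type against 5.78, 5.92 and 6.15 in knockout, again without overlap. Its log2 fold change was 0.44 (SE 0.19, limma adjusted p = 0.223), and it ran from 0.27 to 0.61 over 14 alternative settings.

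TRADD is the adaptor of TNF receptor 1, and Ticam1 encodes TRIF, the adaptor of TLR3. Tradd had means of 6.83 ± 0.16 and 6.97 ± 0.05, and Ticam1 of 7.27 ± 0.43 and 7.29 ± 0.08 (SD, n = 3 each), wild-type first, with overlap for both. The exact two-sided permutation test gave p = 0.1 for Myd88 and Tirap, the smallest that 3 against 3 arrays allow.

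TRAF proteins join receptors to kinases and ubiquitin ligases. TRAF6 serves the interleukin-1 and Toll-like receptors, TRAF2 and TRAF5 the TNF receptors, and TRAF1 lacks the RING domain of the others and is a known NF-κB target. Traf1 gave 4.24, 4.19 and 4.41 in wild-type against 3.90, 3.81 and 4.04 in knockout, every knockout value below every wild-type value. The log2 fold change was -0.37 (SE 0.14, limma adjusted p = 0.195), and -0.39 without wild-type replicate 1. It was negative under all 13 alternatives that kept the gene, from -0.43 to -0.16, though not all of these can alter a log2 fold change. Traf1 is dim, however, and lay in the dimmest group of genes. The median log2 fold change of that group was -0.22 (-0.09 without wild-type replicate 1). Of its 6646 genes, 5901 had a negative value and 1519 had every knockout value below every wild-type value. The Y-linked genes Kdm5d, Uty and Eif2s3y gave 2.29 to 4.26 in these arrays, in which Xist gave 10.1 to 10.8, so the signal of Traf1 is not shown to lie above background.

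Traf2 gave 6.61, 6.97 and 7.32 in wild-type against 7.20, 7.30 and 7.33 in knockout, with the knockouts at the upper end of a wide wild-type range (log2 fold change 0.31, interval -0.13 to 0.75). Traf6 had a log2 fold change of 0.21, and -0.12 without wild-type replicate 1. Traf4 and Traf5 had values of -0.06 and -0.08, and -0.26 and -0.19 without that array. The 9 measured adaptors had a median log2 fold change of 0.13 and 3 of them, Myd88, Tirap and Traf1, had no overlap between groups (33.3%, against 34.6% of all genes). The same 3 stood at an unadjusted limma p under 0.05 (33.3%, against 21.6% of all genes). The median of the 9 adaptors was -0.12 without wild-type replicate 1.

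**Figure D3:**
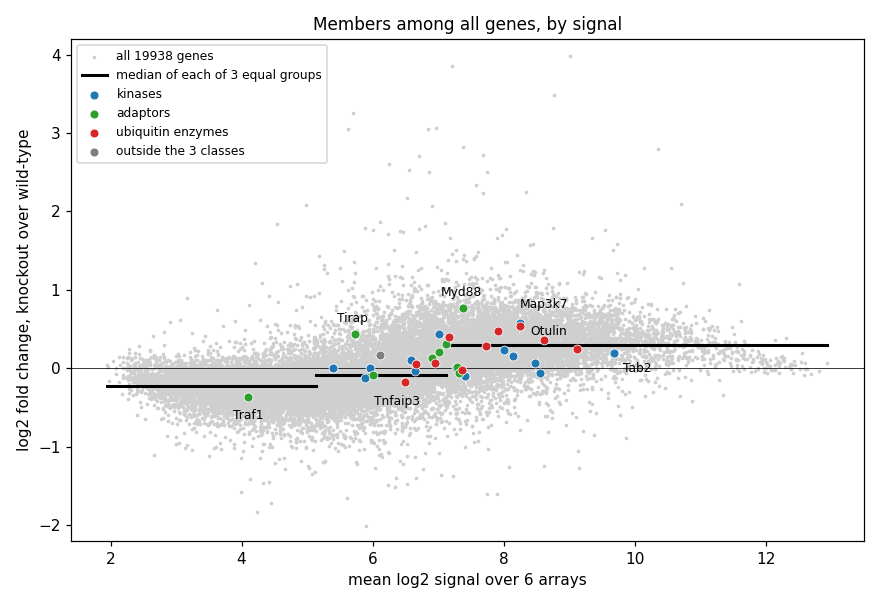
Log2 fold change, knockout over wild-type, against mean log2 signal for all genes (grey), with the measured members coloured by class and black lines at the medians of 3 equal groups of genes ordered by signal. The lines stand at -0.22, -0.09 and 0.30, and the members lie within the cloud of other genes of like signal.

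HOIP (Rnf31), HOIL-1 (Rbck1) and SHARPIN form the complex that builds linear ubiquitin chains, which NEMO binds, and OTULIN removes those chains. All 4 of these genes had knockout values above every wild-type value, where 19.2% of all genes did. All 4 lay in the brightest group of genes, of which 43.9% did and whose median log2 fold change was 0.30 (0.13 without wild-type replicate 1). Otulin gave 7.61, 8.14 and 8.17 in wild-type against 8.46, 8.53 and 8.55 in knockout. Its log2 fold change of 0.54 (SE 0.18, 1.45-fold) had the smallest p of all members (limma adjusted p = 0.155). It was positive under all 14 alternatives, from 0.23 with cyclic loess normalization to 0.69 with arrays centred on their medians. Not all of these alternatives can alter a log2 fold change. Sharpin gave 8.21, 8.49 and 8.59 in wild-type against 8.86, 8.76 and 8.76 in knockout. For Sharpin the log2 fold change was 0.36 (SE 0.15, limma adjusted p = 0.211), and 0.04 with cyclic loess normalization.

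Rnf31 gave 7.20, 7.89 and 7.94 in wild-type against 8.24, 8.16 and 8.08 in knockout. The Rnf31 log2 fold change was 0.48 (SE 0.21, limma adjusted p = 0.229), and 0.25 without wild-type replicate 1. Rbck1 had means of 8.99 ± 0.24 and 9.24 ± 0.07 (SD, n = 3 each), a log2 fold change of 0.25 that was -0.01 with quantile and -0.06 with cyclic loess normalization. The remaining ligases, Birc2 and Birc3, encode cIAP1 and cIAP2, which build chains on RIPK1 and hold NIK low. Birc2 had means of 6.96 ± 0.43 and 7.36 ± 0.17, and Birc3 of 6.92 ± 0.45 and 6.99 ± 0.06 (SD, n = 3 each). Birc3, a known NF-κB target, had a log2 fold change of 0.07 (interval -0.44 to 0.57), and -0.18 without wild-type replicate 1.

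A20 (Tnfaip3) and CYLD take ubiquitin chains apart and so end the signal, and the A20-binding proteins encoded by Tnip1 and Tnip2 act with A20. Cyld gave 7.21, 7.61 and 7.95 in wild-type against 7.95, 7.92 and 7.76 in knockout, with overlap (log2 fold change 0.29, limma adjusted p = 0.383). Tnfaip3, a feedback target of NF-κB, gave 6.43, 6.58 and 6.73 in wild-type against 6.29, 6.51 and 6.42 in knockout. Its groups overlapped, with a log2 fold change of -0.17 (SE 0.14, interval -0.50 to 0.16, limma adjusted p = 0.455). That value was negative under all 14 alternatives (-0.25 to -0.03), though not all of these can alter a log2 fold change. Tnip1 and Tnip2 had log2 fold changes of -0.02 and 0.06, with intervals of -0.35 to 0.31 and -0.34 to 0.46. The 10 ubiquitin genes had a median log2 fold change of 0.27, with 4 (40%) free of overlap, against 34.6% of all genes. Of the 10, 7 lay in the brightest group, of which 46.1% were free of overlap and whose median was 0.30. At an unadjusted limma p under 0.05 stood 3 of the 10 (30%), against 21.6% of all genes and 32.9% of the brightest group. The median of the 10 was 0.10 without wild-type replicate 1 and 0.02 with cyclic loess normalization.

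Nfkbid encodes IκBNS, a nuclear IκB protein that NF-κB induces. It gave 5.87, 6.19 and 6.05 in wild-type against 6.33, 6.09 and 6.19 in knockout. Wild-type and knockout values overlapped, and the log2 fold change was 0.17 (SE 0.15, interval -0.17 to 0.51, limma adjusted p = 0.469).

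Because p65 binds DNA, the 250 bases before each RefSeq start (GRCm38.p6) were searched on both strands for the NF-κB consensus of 10 letters. Short stretches are shown so that the levels of these genes can be read beside the letters p65 is known to favour. Of 29 measured members with a promoter in the table, 5 (17.2%) held a match: Cyld, Map3k7, Nfkbid, Tnfaip3 and Tnip1. Of 15614 measured genes, 788 (5.05%) did. Counted by sequence and not by gene, 3.9% of all promoter sequences of that length held a match. The difference between these shares was not tested. The matches of Nfkbid are not shown. A gene can have several starts. Capitals mark the match, and each stretch reads 5′ to 3′ on the strand of its gene. A match is a description of letters, not a shown binding site.
Tnfaip3, chr10:19015501-19015560, minus strand: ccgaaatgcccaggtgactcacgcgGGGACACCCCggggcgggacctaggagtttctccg
Tnfaip3, chr10:19015411-19015447, minus strand: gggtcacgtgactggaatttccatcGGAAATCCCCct
Tnip1, chr11:54962963-54963022, minus strand: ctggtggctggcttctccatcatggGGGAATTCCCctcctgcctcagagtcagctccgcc
Map3k7, chr4:31963990-31964049, plus strand: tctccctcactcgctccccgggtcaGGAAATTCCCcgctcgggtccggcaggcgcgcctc
Cyld, chr8:88696848-88696907, plus strand: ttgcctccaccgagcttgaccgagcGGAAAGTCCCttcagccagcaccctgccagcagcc

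The Tnip1 match reads the same on both strands and overlaps 2 further matches shifted by 1 base. The 5 genes with a match did not share a direction: their log2 fold changes were 0.58 for Map3k7, 0.29 for Cyld, 0.17 for Nfkbid, -0.02 for Tnip1 and -0.17 for Tnfaip3. None of the 5 passed the threshold. Members without a match here include Birc3 and Traf1, whose known regulatory sites may lie outside this window.

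Other genes of the pathway were read from 3 lists chosen by function. Of 9 measured NF-κB subunits and IκB proteins, 1 rose, 0 fell and 8 did not pass, where 0.687% of all genes rose and 0.13% fell. Without wild-type replicate 1, 1 rose and 2 fell: Rela, by 0.51 on the log2 scale (limma adjusted p = 0.04), and Nfkbia, the IκBα gene and a feedback target, by 0.72 (limma adjusted p = 0.0334). In that fit 4.66% of all genes passed. With all arrays the log2 fold change of Nfkbia stood at -0.43 (limma adjusted p = 0.319). The gene that rose was Nfkbib, which encodes IκBβ, from 8.48, 8.57 and 8.65 in wild-type to 9.35, 9.25 and 9.42 in knockout. The log2 fold change of Nfkbib was 0.77 (SE 0.13, 1.71-fold, limma adjusted p = 0.0476), and it passed under 7 of 14 alternatives, with adjusted p from 0.00739 to 0.276. The call was kept without wild-type replicate 1 and lost without any other single array or with quantile or cyclic loess normalization. That difference equals that of Myd88 in size, but the wild-type SD was 0.09 for Nfkbib and 0.77 for Myd88.

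Of 18 measured receptors upstream, 0 passed limma over all genes and 2 stood at an unadjusted p under 0.05, where 0.818% and 21.6% of all genes did. Il18r1, a chain of the interleukin-18 receptor, had a log2 fold change of -0.76 (SE 0.16, limma adjusted p = 0.0783). It passed without wild-type replicate 1 (limma adjusted p = 0.0462), with the replicate block (0.0488), with array weights (0.0208) and without the dimmest genes (0.0453). Tnfrsf13c, the BAFF receptor gene, had -0.66 (limma adjusted p = 0.106, but 0.0306 with array weights). Of 28 measured other signalling proteins, 0 passed and 8 (28.6%) stood at an unadjusted p under 0.05, against 21.6% of all genes. Card9, an adaptor of C-type lectin receptors in myeloid cells, gave 5.37, 5.55 and 6.12 in wild-type against 6.51, 7.25 and 6.70 in knockout. Its log2 fold change of 1.14 (SE 0.25) did not pass (limma adjusted p = 0.0817), but did with the replicate block (limma adjusted p = 0.0366), with array weights (0.0354) and without the dimmest genes (0.0463). Tbkbp1, which encodes a TBK1-binding protein, had -0.60 (limma adjusted p = 0.125, but 0.0444 with array weights). With array weights 8.02% of all genes passed.

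Markers of other cell types moved between the groups in the same arrays. Over all genes, 0.687% rose and 0.13% fell, and 21.6% stood at an unadjusted limma p under 0.05. Of 10 marker genes of early neutrophil and monocyte precursors, 9 rose, and the mean log2 level of the list was 7.59 to 7.79 in wild-type and 9.94 to 10.29 in knockout. The count was 7 to 9 with 1 array left out. Of 6 mast cell and basophil markers 3 rose (1 without wild-type replicate 3 or any single knockout array), with list means of 6.41 to 6.79 and 8.0 to 8.4. Of 12 markers of mature macrophages and granulocytes 1 rose (2 when wild-type replicate 1 was left out, 0 without wild-type replicate 3 or knockout replicate 1), and the list means overlapped, at 5.27 to 5.73 and 5.59 to 5.70. Of 10 measured lymphocyte markers 1, Nkg7, rose (0 without any single array other than wild-type replicate 1, without which Cd3d also fell), with list means of 5.77 to 6.00 and 5.68 to 5.78. Of these 10, 5 stood at an unadjusted limma p under 0.05: Nkg7 and, lower in knockout, Cd3d, Cd4, Cd8a and Ncr1. The median log2 fold change of the lymphocyte list was -0.33. Of 8 stem cell markers 1 fell, with 6 at an unadjusted limma p under 0.05 and list means of 7.50 to 8.02 and 6.95 to 7.20. Without wild-type replicate 1, 7 of the 8 fell, and without any other single array 0 did. None of 6 measured erythroid or 4 megakaryocyte markers passed limma, with 3 and 0 at an unadjusted p under 0.05. Myd88, Tirap and Card9, all higher in knockout, are used by myeloid cells, as is Irak3, whose log2 fold change was -0.06. The part of the cell type markers in the values of these genes was not tested.

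**Figure D4:**
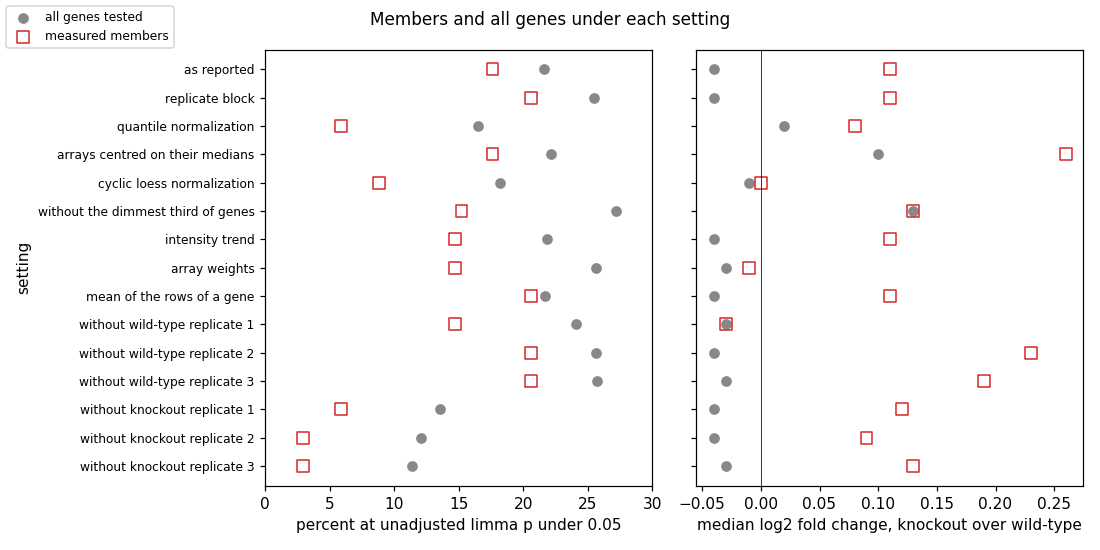
Measured members (open squares) and all genes tested (filled circles) under the reported fit and 14 alternatives, as the percent at an unadjusted limma p under 0.05 (left) and the median log2 fold change (right). The members' percent lies below that of all genes in each row, and the medians coincide without wild-type replicate 1 (both -0.03) and without the dimmest genes (both 0.13).

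In each of the 15 fits, the share of members at an unadjusted limma p under 0.05 lay below the share of all genes, from 2.94% against 11.4% without knockout replicate 3 to 20.6% against 21.7% with the rows of a gene averaged. As reported the shares were close, 17.6% against 21.6%. The fits reuse the same arrays, so they are not separate evidence, and this description carries no test of the list.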

How the data were processed

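RNA of sorted bone marrow cells was extracted with a Qiagen kit, amplified with NuGEN's Ovation Pico WTA V2 and labelled with biotin, per the labels' protocols. The 6 arrays' values were deposited as 1 table on the log2 scale. Per the submitters' processing notes, RMA was used, along with Partek and Affymetrix Expression Console. RMA corrects background, normalizes and summarises probes, yet array medians and SDs differ. The series' design text gives Mouse Exon 1.0 ST as the array, while the probe annotation used here is that of another Affymetrix array design, through which 21789 of 35557 rows had 1 gene symbol. Of several rows of a gene the brightest was kept, which left 19938 genes.

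The deposited values of both groups were fitted in limma 3.58.1 under R 4.3.3, with genotype as the sole term, and p-values were adjusted over all genes by Benjamini-Hochberg (threshold 0.05). The fit was tested on simulated data. Members and lists were chosen with earlier results of these data known. Values in every array are given for the 2 members with the smallest p in each of 8 roles and for the largest differences. Tnfaip3, a feedback target, was added outside that rule. Of the other lists, genes past the threshold or the 2 with the smallest p are named, and Rela. For the NF-κB subunits and IκB proteins these were Nfkbib and Rela, and Nfkbia was added for its fall without wild-type replicate 1. Same-numbered arrays of the 2 groups deviated together (r = 0.368, 0.119 and 0.162), though arrays 2 and 3 did so as much across numbers (0.195 and 0.183), so the replicate number was tried as a block; the labels do not say what a number marks. Alternatives were normalization, a filter on dim genes, a variance trend, array weights, averaging rows and leaving out each array. The block, the filter and the trend leave each log2 fold change as it was. Averaging does so for genes with 1 row, which were all measured members but Birc2. The number of arrays limits the precision. Promoter sequences are from RefSeq (GRCm38.p6), and 0 symbols needed an update.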

Additional observations from a re-analysis of the deposited data

How the results depend on the processing

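None of the 34 members passed limma under any of the 14 alternatives, and 14 members kept the sign of their log2 fold change throughout. Counts of genes past the threshold were 163 as reported, 372 with the replicate number as a block, 104 with quantile normalization, 505 without the dimmest genes, 1599 with array weights and 21 to 929 with 1 array left out. Leaving out a wild-type array gave 929 (replicate 1), 75 (replicate 2) or 26 (replicate 3), and leaving out a knockout array 22, 21 or 29, in order of replicate number. The share of calls with knockout above wild-type was 84% as reported, 96.9% after median centring and 68% after cyclic loess normalization. The block changed no call of a member; of the other pathway genes named, it brought Card9 and Il18r1 past the threshold. The 6 members at an unadjusted limma p under 0.05 became 2 with quantile and 3 with cyclic loess normalization, and 1 to 7 with 1 array left out. The median log2 fold change ranged over the left-out arrays from -0.12 to 0.23 for adaptors, -0.05 to 0.15 for kinases and 0.10 to 0.38 for ubiquitin genes, and was 0.02 for the last with cyclic loess normalization. The cause was not tested.

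Signs turned for 20 members, in 63 of 475 values, none of them past the threshold. The 475 include fits that cannot alter a log2 fold change: the block, the filter, the trend and, for genes with 1 row, averaging. With array weights the log2 fold change was -0.01 for Ikbke, Tbk1, Tab2 and Map3k14, -0.13 for Map3k8, -0.07 for Irak1 and Traf6, 0.02 for Irak2, -0.12 for Ticam1, -0.17 for Birc3 and -0.06 for Tnip2. With arrays centred on their medians it was 0.03 for Ikbkg, 0.05 for Tab1, 0.14 for Map3k3, 0.11 for Irak2, 0.09 for Irak3, 0.08 for Traf4, 0.07 for Traf5 and 0.13 for Tnip1. With cyclic loess normalization it was -0.13 for Ikbkb, -0.05 for Tbk1 and Birc3, -0.09 for Tab2, -0.25 for Irak1, -0.16 for Ticam1 and -0.06 for Rbck1. With quantile normalization it was -0.05 for Ikbkb, 0.01 for Ikbkg, -0.09 for Tab2, -0.17 for Irak1, -0.07 for Ticam1, 0.06 for Traf5 and -0.01 for Rbck1. With 1 array left out, values ran from -0.18 to 0.25 for Birc3, -0.00 to 0.34 for Ikbkb, -0.02 to 0.20 for Ikbke, -0.09 to 0.16 for Irak1, -0.11 to 0.06 for Irak2, -0.27 to 0.22 for Irak3, -0.02 to 0.02 for Map3k14, -0.19 to 0.11 for Map3k3, -0.12 to 0.13 for Map3k8, -0.36 to 0.23 for Tab1, -0.06 to 0.33 for Tab2, -0.04 to 0.38 for Tbk1, -0.21 to 0.23 for Ticam1, -0.11 to 0.06 for Tnip1, -0.10 to 0.20 for Tnip2, -0.26 to 0.05 for Traf4, -0.19 to 0.05 for Traf5 and -0.12 to 0.39 for Traf6.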
